A study of Homo sapiens with 12 samples.

Results

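The replication-dependent histone genes of human cells lie in a few tight clusters, and the acetylation of these clusters was followed here through H3K27ac peaks. The intervals, in hg19, were 6A (chr6:26010001-26290000, 280 kb), 6B (chr6:27095001-27120000, 25 kb), 6C (chr6:27770001-27865000, 95 kb) and 1A (chr1:149750001-149865000, 115 kb). The members are all peaks that overlap one of these intervals, 275 of the 667017 deposited peaks. Each library contributed 26 to 34 of them. The measure is the length of each interval that the peaks of a library cover.

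H3K27ac, acetylation of lysine 27 of histone H3, marks active promoters and enhancers. It was mapped by ChIP-seq on native, unfixed chromatin of MDA-MB231, a breast cancer cell line, from 250000 to 500000 cells per precipitation. All cells were infected with lentivirus and grown for a further 96 h. Control cells received the EV-control virus, CDK19KD cells a virus with an shRNA against CDK19, and CDK8KD cells one against CDK8. CDK8 and its paralog CDK19 are alternative kinases of the Mediator kinase module, so the comparisons ask how acetylation differs after knockdown of either kinase. Each group had 3 libraries, each with its own list of broad peaks. The labels do not say whether the replicates were separate infections, so p-values measure the spread between these libraries. Remaining kinase levels were not measured in these files, and the number of shRNA sequences per kinase is not given in the sources used here.

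On chromosomes 1 to 22 and X the lists held 62669 to 87530 peaks and covered 262 to 318 Mb. Peaks of one list never overlapped each other, and no cluster peak recurred with the same coordinates in another list. No counting error can be given, since read depth is unknown. The CDK19KD lists covered 262 to 271 Mb, the Control lists 263 to 316 Mb and the CDK8KD lists 292 to 318 Mb, and covered lengths in the clusters are therefore also given as a percentage of each list's total.

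Histones package DNA, and cells must make them in bulk while DNA is copied. The clustered genes are transcribed mainly in S phase, in nuclear bodies that hold the activator NPAT, and their mRNAs end in a stem-loop in place of a poly(A) tail. H2A, H2B, H3 and H4 form the nucleosome core, and H1 binds the linker DNA between nucleosomes. RefSeq (GRCh38.p14) lists 64 such genes in the 4 neighbourhoods, 6 for H1, 15 for H2A, 16 for H2B, 13 for H3 and 14 for H4. In 6A there are 32, from H1-1 to H4C8, and they include H1-6, the testis form of H1. The other neighbourhoods hold 5 genes (6B, H2BC11 to H2AC12), 16 genes (6C, H2BC13 to H2BC17) and 11 genes (1A, H2BC18 to H2AC21). Other protein-coding genes in these neighbourhoods were HFE in 6A, which encodes a regulator of iron uptake, and FCGR1A, an Fc receptor gene, and LOC124904411 in 1A. No annotation of hg19 was used, so peaks are given by position and not by gene.

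The promoters of the clustered genes share short sequence motifs, and 1 promoter of each family is printed to show them. For each family it is that of the first gene of 6A with a RefSeq promoter, from 150 bases before the start to the base before it (GRCh38.p14, on the strand of the gene). Capitals mark the motifs TATAAA (the TATA box), CCAAT (the CCAAT box) and ATTTGCAT (the octamer motif) on either strand, so that a capital run with other letters is the reverse complement of one of them.
H1-1 (chr6:26017788-26017937, minus strand): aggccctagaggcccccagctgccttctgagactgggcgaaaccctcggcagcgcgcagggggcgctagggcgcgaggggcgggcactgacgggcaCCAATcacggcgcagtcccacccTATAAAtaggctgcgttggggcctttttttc
H2AC4 (chr6:26033619-26033768, minus strand): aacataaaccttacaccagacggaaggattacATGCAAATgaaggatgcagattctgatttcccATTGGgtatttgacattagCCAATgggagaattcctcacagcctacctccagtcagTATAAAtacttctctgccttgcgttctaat
H2BC3 (chr6:26043714-26043863, minus strand): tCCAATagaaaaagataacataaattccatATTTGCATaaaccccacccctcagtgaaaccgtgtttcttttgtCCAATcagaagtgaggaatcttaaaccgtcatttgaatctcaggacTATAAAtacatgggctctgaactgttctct
H3C1 (chr6:26020301-26020450, plus strand): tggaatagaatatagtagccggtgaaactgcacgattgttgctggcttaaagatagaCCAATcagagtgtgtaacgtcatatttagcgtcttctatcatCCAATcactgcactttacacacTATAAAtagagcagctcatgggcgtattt
H4C2 (chr6:26027284-26027433, minus strand): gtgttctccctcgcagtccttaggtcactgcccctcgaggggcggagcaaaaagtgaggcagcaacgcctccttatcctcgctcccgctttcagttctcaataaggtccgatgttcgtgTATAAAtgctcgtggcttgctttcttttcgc

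Of the 64 genes, 59 had a promoter in the RefSeq table (250 bases before to 50 after the start), with 63 promoters in all. TATAAA was in 42 of the 63 (66.7%), against 11.5% of all 35116 promoters in the table. In 34 of the 63 it began on the gene's own strand between 40 and 20 bases before the start (54.0%, against 2.30%). CCAAT was in all 6 H1, all 14 H2A, all 18 H2B and all 13 H3 promoters but in 3 of the 12 H4 promoters, against 34.6% of all promoters. ATTTGCAT, the motif bound by the transcription factor OCT1, was in 10 of the 14 H2A and 14 of the 18 H2B promoters. It was in 1 of the 13 H3 promoters and in none (0) of the H1 or H4 promoters, against 1.77% of all promoters. In 9 pairs, each of 1 H2A and 1 H2B gene, the neighbours were transcribed away from each other, such as H2BC4 with H2AC6 in 6A and H2BC11 with H2AC11 in 6B. In 1A, the promoters of H3C14 and H3C15, of H2AC18 and H2AC19, and of H4C14 and H4C15 were identical over 296, 299 and 300 bases. How the authors' aligner placed reads from such copies is not given in the sources used here, so values inside 1A are uncertain where copies share reads.

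In every library the clusters were covered to a larger share than the chromosomes as a whole. How they rank among other intervals of the genome was not tested. Peaks covered 36.6% ± 2.89 (SD, n = 9) of the clusters, against 9.51% ± 0.768 (SD, n = 9) of chromosomes 1 to 22 and X up to the last peak of each chromosome. The ratio of these shares was 3.87 ± 0.394 (SD, n = 9) and lay between 3.28 and 4.57. The group means were 4.11 ± 0.404 (Control), 4.001 ± 0.232 (CDK19KD) and 3.51 ± 0.310 (CDK8KD, SD, n = 3 each). All 3 CDK8KD libraries (3.28, 3.38 and 3.86) lay below the lowest Control library, by little in the case of the highest (3.858 against 3.861).

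6B was the most densely covered cluster, with 54.2% to 81.6% of its bases under peaks. The share was 28.9% to 39.5% in 6A, 34.2% to 41.5% in 6C and 32.8% to 37.2% in 1A, so these overlapped one another. The 805 kb between 6A and 6B were covered to 18.9% ± 1.39, and the 650 kb between 6B and 6C to 11.1% ± 2.29 (SD, n = 9). In every library, 6A, 6B and 6C were each covered to a larger share than either stretch. The borders differed: the 100 kb after 6A were covered to 58.5% ± 4.70 (SD, n = 9), above the share of 6A itself. The 100 kb after 1A were covered to 32.2% ± 7.50 (SD, n = 9), from 24.8% to 47.3%, which overlaps with the share of 1A. By contrast, the 100 kb before 1A were covered to 0.560% ± 0.468 (SD, n = 9). All 9 libraries had a peak that crossed the start of 6B, and all 9 had one that crossed the end of 6C.

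**Figure D1:**
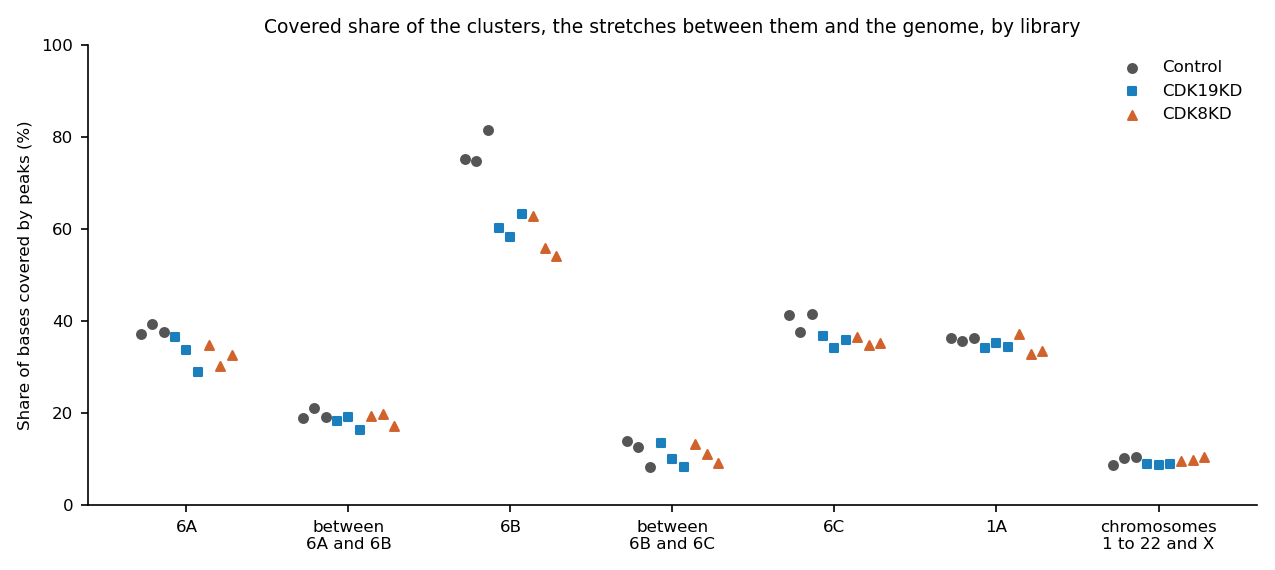
Share of bases covered by peaks (%, vertical axis) in the 4 clusters, in the chromosome 6 stretches between them and in chromosomes 1 to 22 and X, 1 point per library. 6B stands highest, with Control between 74.8% and 81.6% and both knockdown groups between 54.2% and 63.4%.

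Acetylation inside the clusters came in blocks at fixed places, with long bare stretches between them. Of the 515 kb, 137 kb (26.7%) were covered in all 9 libraries, 255 kb (49.6%) in none and 23.7% in 1 to 8. The bases covered in all 9 made up 14 blocks in 6A, 2 in 6B, 5 in 6C and 6 in 1A. The longest was in 6A (chr6:26019856-26035914, 16.1 kb). In 6B it measured 8.36 kb, in 6C 7.98 kb and in 1A 7.03 kb. The longest stretch without a peak in any library was also in 6A (chr6:26208141-26267974, 59.8 kb), and the next in 6C (chr6:27810333-27857255, 46.9 kb).

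**Figure D2:**
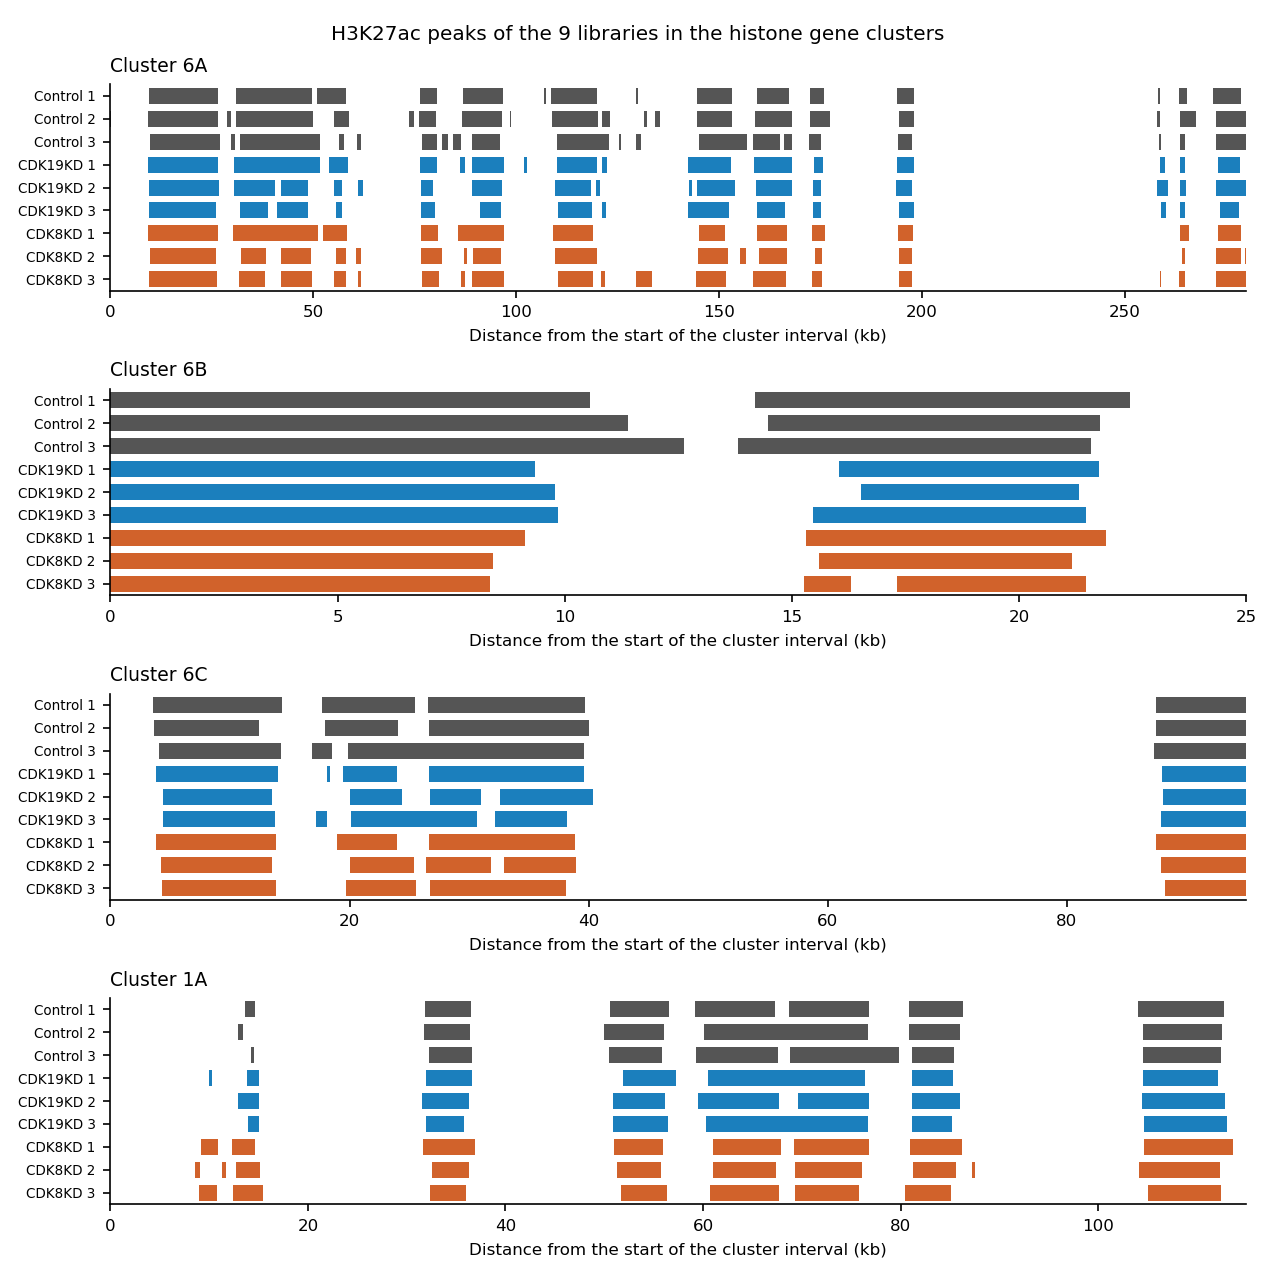
Peaks of each library (horizontal bars, grey for Control, blue for CDK19KD, orange for CDK8KD; 1 row per library) along the 4 cluster intervals, as distance from the start of the interval in kb. The blocks recur at the same places in all rows, 6A and 6C have long empty stretches (59.8 and 46.9 kb), and the gap between the blocks of 6B is narrower in the 3 Control rows.

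Merging the overlapping peaks of the 9 lists gave 36 regions that touch the clusters, and 22 of them were held by all 9 libraries (61.1%). Over all 120363 merged regions this share was 28.3%. A region counts as held when a peak of the library overlaps it by at least 1 bp. By cluster, all 9 libraries held 11 of 22 regions in 6A, both in 6B, all 3 in 6C and 6 of 9 in 1A. A single library held 10 of the 36 regions, 8 in 6A and 2 in 1A, and 5 of the 8 in 6A came from Control replicate 2. The 22 common regions had a median length of 9.68 kb, against 7.60 kb for the 34047 regions that all 9 libraries held across the genome.

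The peaks in the clusters ranked high in their own lists. By the authors' deposited −log10 p, their median percentile within the list lay between 89.5 and 97.4, and 129 of the 275 (46.9%) were in the top 5% of their list. By cluster, 17 of 19 peaks of 6B were in the top 5%, 77 of 150 of 6A, 15 of 40 of 6C and 20 of 66 of 1A. The median deposited fold enrichment of the cluster peaks was 5.61 ± 0.779 per library, against 2.78 ± 0.197 for whole lists (SD, n = 9). Their median width was 5.62 ± 1.04 kb, against 2.47 ± 0.394 kb (SD, n = 9). In every library the strongest cluster peak was in 6A, at percentiles from 99.48 to 99.99 of its list. In all 3 Control libraries, CDK19KD replicate 1 and CDK8KD replicate 1 it lay in the region chr6:26118712-26133051, and in Control replicate 1 it ranked at place 11 of the list. The number of cluster peaks in the top 5% was 16, 17 and 17 in Control, 16, 15 and 18 in CDK19KD, and 9, 11 and 10 in CDK8KD. These ranks come from lists of different lengths and are no measure of change.

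Both knockdown groups had shorter peak coverage of the clusters than Control. The 4 clusters together were covered over 204, 206 and 207 kb in Control replicates 1, 2 and 3, over 192, 182 and 170 kb in CDK19KD, and over 191, 169 and 177 kb in CDK8KD. Every knockdown library lay below every Control library, while both knockdown groups overlapped. The means were 206 ± 1.47 kb, 181 ± 10.8 kb and 179 ± 11.05 kb (SD, n = 3). Differences between groups made up 72.7% of the variance (exact permutation test over the 280 splits of 9 libraries into 3 groups, p = 0.0464). After replicate means were removed, groups held 82.9% of the remaining variance. With labels permuted only within replicate numbers, the test did not pass 0.05 (exact permutation p = 0.0833). It also did not pass with 6 of the 9 libraries left out singly: each of the 3 Control libraries (p from 0.104 to 0.121), CDK19KD replicate 2 (p = 0.0571) and CDK8KD replicates 2 and 3 (p = 0.0643 and 0.0786), all exact permutation tests.

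Relative to Control, the log2 ratio was −0.18 in CDK19KD and −0.20 in CDK8KD (exact permutation p = 0.1 for either, the smallest that 3 against 3 libraries allow). Between both knockdowns (CDK19KD to CDK8KD) it was 0.02 (exact permutation p = 0.7). As a percentage of the total covered length of the list, the clusters made up 0.0697% ± 0.00686 (Control), 0.0679% ± 0.00394 (CDK19KD) and 0.0595% ± 0.00526 (CDK8KD, SD, n = 3 each). On that scale CDK19KD had a log2 ratio of −0.04 to Control (exact permutation p = 0.8), with overlapping groups. For CDK8KD it was −0.23 (exact permutation p = 0.1), with groups apart, and the 3 groups together did not pass 0.05 (exact permutation p = 0.136). The scaled log2 ratio of CDK19KD to CDK8KD was 0.19 (exact permutation p = 0.2), with overlapping groups. The CDK19KD lists covered less in all than Control replicates 2 and 3 (313 and 316 Mb). Control replicate 1 had a total of 263 Mb, below CDK19KD replicates 1 and 3 (271 and 269 Mb). It still covered 204 kb of the clusters, against 192 and 170 kb in these CDK19KD libraries. Whether list totals account for the lower covered length was not tested. The number of peaks in the clusters, 31 ± 2.65 (Control), 29.7 ± 1.53 (CDK19KD) and 31 ± 4.36 (CDK8KD, SD, n = 3 each), did not pass the test of 3 groups (exact permutation p = 0.832).

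**Figure D3:**
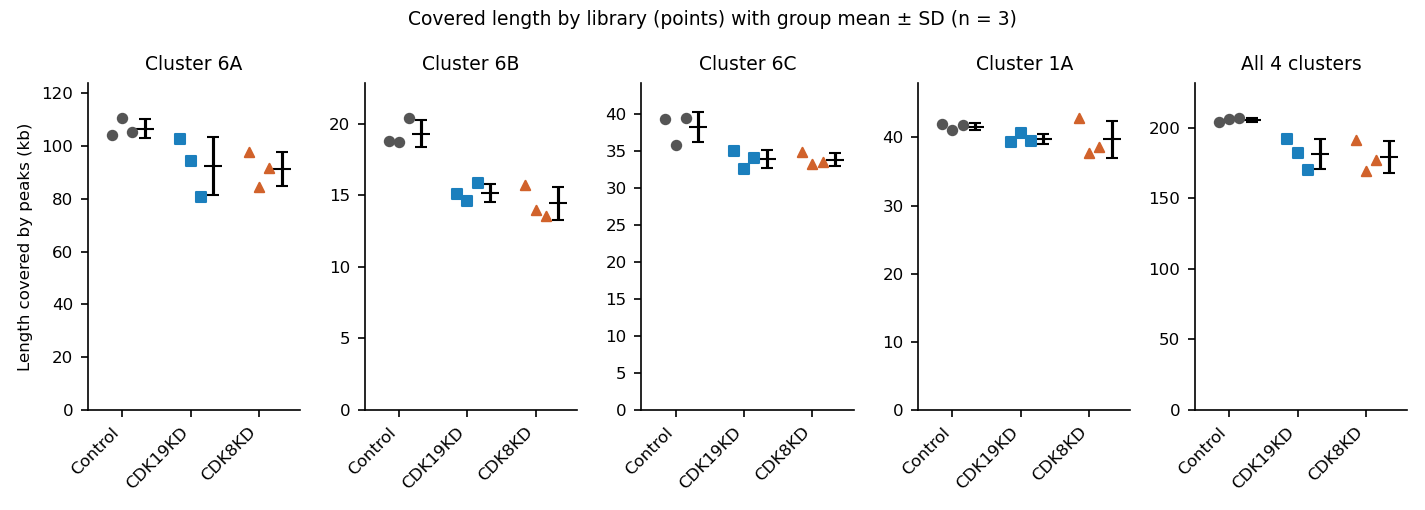
Length covered by peaks (kb, vertical axis from 0) in each cluster and in all 4 together, for the 3 libraries of each group (points) with the group mean ± SD (black, n = 3). In 6A, 6B, 6C and the sum, all 6 knockdown libraries lie below all 3 Control libraries.

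Among the single clusters, 6B had the largest relative difference. It was covered over 18.8, 18.7 and 20.4 kb in Control, over 15.1, 14.6 and 15.9 kb in CDK19KD and over 15.7, 13.99 and 13.6 kb in CDK8KD. Differences between groups made up 88.7% of the variance (exact permutation p = 0.0143, unadjusted, 1 of 4 such tests of single clusters; within replicate numbers exact p = 0.0833). Relative to Control, the log2 ratio was −0.35 in CDK19KD and −0.42 in CDK8KD (exact permutation p = 0.1 for either). 6B holds 5 histone genes, 2 for H2A, 2 for H2B and 1 for H4. Scaled to the total of each list, 6B still set the groups apart (0.00653% ± 0.000592, 0.00568% ± 0.000199 and 0.00479% ± 0.000567, SD, n = 3). On that scale the exact permutation p was 0.00357, the smallest that 280 splits can give, and within replicate numbers it was 0.0278, also the smallest possible. The scaled log2 ratios to Control were −0.20 in CDK19KD and −0.45 in CDK8KD, and that of CDK19KD to CDK8KD was 0.24 (exact permutation p = 0.1 for each), with all 3 groups apart. With the interval widened by 10 kb on either side, the unscaled ratio to Control was −0.37 in CDK19KD and −0.23 in CDK8KD. The unscaled ratio of CDK19KD to CDK8KD then changed sign, from 0.07 to −0.14, so the order of the knockdowns in 6B depended on the setting.

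The difference in 6B lay mainly at the facing ends of its 2 regions. The left region (chr6:27092818-27107619) was covered over 12.3, 13.1 and 14.8 kb in Control, 10.96, 11.05 and 10.98 kb in CDK19KD, and 11.3, 10.3 and 9.94 kb in CDK8KD (exact permutation p = 0.0143, 1 of 8 tests of named regions; within replicate numbers exact p = 0.0556). The right region (chr6:27108816-27117443) was covered over 8.26, 7.31 and 7.77 kb in Control, 5.72, 4.79 and 6.01 kb in CDK19KD, and 6.61, 5.57 and 5.202 kb in CDK8KD (exact permutation p = 0.025; within replicate numbers exact p = 0.0833; scaled exact p = 0.0536). All 6 knockdown libraries were below all 3 Control libraries in both. The uncovered gap between the regions, a measure chosen after the peaks had been seen and given without a test, was 3.62, 3.07 and 1.196 kb in Control. It was 6.69, 6.75 and 5.62 kb in CDK19KD and 6.18, 7.18 and 6.91 kb in CDK8KD. In no library did a peak bridge the gap.

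6C was covered over 39.2, 35.8 and 39.4 kb in Control, over 34.9, 32.5 and 34.0 kb in CDK19KD and over 34.8, 33.1 and 33.4 kb in CDK8KD. All 6 knockdown libraries were below the lowest Control library. Differences between groups made up 74.4% of the variance (exact permutation p = 0.0357; within replicate numbers exact p = 0.111). Scaled to the total of each list, the test did not pass 0.05 (exact permutation p = 0.211). Unscaled, either knockdown had a log2 ratio of −0.17 to Control (exact permutation p = 0.1). Scaled, it was −0.03 in CDK19KD (exact permutation p = 0.9) and −0.21 in CDK8KD (exact permutation p = 0.2), both overlapping with Control. The scaled ratio of CDK19KD to CDK8KD was 0.18 (exact permutation p = 0.1), with these groups apart. Its longest region (chr6:27786821-27810332) was covered over 20.9, 19.4 and 21.5 kb in Control, 17.7, 16.4 and 17.5 kb in CDK19KD, and 17.2, 16.8 and 17.2 kb in CDK8KD (exact permutation p = 0.025; within replicate numbers exact p = 0.0556). The region at its far end (chr6:27857256-27873171) had 15.4 ± 0.423, 14.1 ± 1.13 and 14.8 ± 0.695 kb in Control, CDK19KD and CDK8KD (SD, n = 3; exact permutation p = 0.211). The exact p was 0.0278 within replicate numbers and 0.643 when scaled to each list's total. This region runs past the end of 6C, and its lengths and p-values include the part outside. The last window of 6C, chr6:27860001-27865000, was covered to 100% in all 9 libraries.

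6A, which holds 32 of the 64 histone genes, was covered over 104, 111 and 105 kb in Control, over 103, 94.4 and 80.8 kb in CDK19KD and over 97.8, 84.6 and 91.5 kb in CDK8KD. All knockdown libraries were below all Control libraries, though CDK19KD replicate 1 was close to Control replicate 1. The 3 groups did not pass 0.05 (55.1% of the variance, exact permutation p = 0.107). Relative to Control, the log2 ratio was −0.20 in CDK19KD and −0.22 in CDK8KD (exact permutation p = 0.1 for either). Without CDK19KD replicate 3 the former was −0.11. Scaled to each list's total, both knockdown groups overlapped with Control, with log2 ratios of −0.06 in CDK19KD (exact permutation p = 0.7) and −0.25 in CDK8KD (exact permutation p = 0.2). The longest region of 6A (chr6:26039654-26068741) was longest in replicate 1 of each group, with 26.2 kb in Control, 26.2 kb in CDK19KD and 26.7 kb in CDK8KD against 15.9 to 22.5 kb in the other libraries (3 groups, exact permutation p = 0.561). The second (chr6:26019300-26036909), in which the longest common block lay, was a single peak in every library, 16.3 to 17.3 kb long (exact permutation p = 0.364), with a deposited fold enrichment of 6.40 to 8.69. The region of the strongest peaks (chr6:26118712-26133051) measured 11.3, 13.3 and 12.8 kb in Control, 11.01, 9.90 and 9.54 kb in CDK19KD and 9.99, 10.3 and 9.44 kb in CDK8KD, with no test because it was singled out after its values had been seen.

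1A was covered over 41.9, 41.0 and 41.8 kb in Control, over 39.3, 40.6 and 39.5 kb in CDK19KD and over 42.8, 37.7 and 38.6 kb in CDK8KD. The 3 groups did not pass 0.05 (28.3% of the variance, exact permutation p = 0.339), and the CDK8KD libraries overlapped with Control. The log2 ratio to Control was −0.06 in CDK19KD (exact permutation p = 0.1) and −0.07 in CDK8KD (exact permutation p = 0.4). For CDK8KD it was −0.12 without CDK8KD replicate 1 and −0.20 with the 20000 strongest peaks of each list (exact permutation p = 0.1 for either). For CDK19KD it turned to 0.08 when scaled to each list's total (exact permutation p = 0.4). CDK8KD libraries had more peaks in 1A (8, 10 and 8) than Control (7, 6 and 7) and CDK19KD (7, 7 and 6). Differences between groups made up 66.7% of the variance in this number (exact permutation p = 0.0357; within replicate numbers exact p = 0.111). It includes weak peaks. In chr1:149758564-149760854, chr1:149761261-149761655 and chr1:149837255-149837504, where no Control library had a peak, those of CDK8KD had a −log10 q of 1.004 to 4.003. The number without them was not tested. The far region of 1A (chr1:149854061-149863623) was nearly the same length in all groups, 8.20 ± 0.412, 8.16 ± 0.495 and 8.19 ± 0.798 kb (SD, n = 3; exact permutation p = 1).

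Inside 1A, regions differed from Control in opposite directions in CDK8KD. The longest (chr1:149809192-149829856) was covered over 16.2, 16.6 and 19.4 kb in Control, 15.9, 15.3 and 16.4 kb in CDK19KD and 14.5, 13.1 and 13.5 kb in CDK8KD. Differences between groups made up 72.1% of the variance (exact permutation p = 0.00714; within replicate numbers exact p = 0.0278; scaled to each list's total exact p = 0.0357). Every CDK8KD library was below every library of both other groups. The log2 ratio of CDK8KD to Control was −0.34 (exact permutation p = 0.1). By contrast, the short region near the start of the interval (chr1:149762354-149765410), singled out after its values had been seen, was covered over 1.01, 0.584 and 0.276 kb in Control. There it was 1.29, 2.07 and 1.07 kb in CDK19KD and 2.28, 2.47 and 2.96 kb in CDK8KD, so that the 3 groups did not overlap. Its peaks were weak, with a −log10 q of 2.31 to 4.21, and none (0) reached 5.

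Across the 22 regions held by all 9 libraries, most were shorter in either knockdown. Against Control, 19 of 22 had a lower mean covered length in CDK19KD and 3 a higher one, with a median log2 ratio of −0.16. Over all 34047 such regions of the genome, 19996 were shorter and 14048 longer, with a median of −0.07. Groups did not overlap in 6 regions that were shorter in CDK19KD (background 8.44% of all such regions) and in 1 that was longer (6.90%). The shorter ones were both regions of 6B, chr6:27786821-27810332 in 6C, and chr6:26086181-26093330, chr6:26118712-26133051 and chr6:26182179-26187359 in 6A. The last had the lowest log2 ratio of them, −0.87, with 3.48, 4.92 and 2.96 kb in Control against 2.22, 2.03 and 1.96 kb in CDK19KD. In CDK8KD its 3.27, 1.53 and 2.45 kb overlapped with Control. Scaled to each list's total, the split was 11 shorter and 11 longer, with a median of −0.02 against 0.08 for the genome. Over the genome, 13448 were shorter and 20599 longer on that scale. Groups then did not overlap in 2 shorter regions (background 3.93%), the right region of 6B and chr6:26182179-26187359, and in 1 longer (10.8%). The excess of shorter regions in CDK19KD was therefore absent after scaling, while the median kept its sign.

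In CDK8KD, 21 of 22 regions were shorter than in Control and 1 was longer, with a median log2 ratio of −0.17. Over the 34047 regions of the genome, 13572 were shorter and 20467 longer, with a median of 0.08. Scaled to each list's total, the split was again 21 and 1, with medians of −0.20 in the clusters and 0.05 in the genome. Over the genome, 14738 were shorter and 19309 longer on that scale. Groups then did not overlap in 7 shorter cluster regions (background 5.06%) and 1 longer (12.0%). Unscaled, groups did not overlap in 6 regions that were shorter (background 4.34%) and in 1 that was longer (15.8%). The 6 shorter ones were both regions of 6B, chr6:26118712-26133051 in 6A, chr6:27786821-27810332 in 6C, and chr1:149799963-149807282 and chr1:149809192-149829856 in 1A. The longer one was the short region of weak peaks in 1A described above, with a log2 ratio of 2.04. Both comparisons use the same Control libraries.

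CDK19KD against CDK8KD gave 12 longer and 10 shorter regions, with a median log2 ratio of 0.02 against −0.15 over the genome. Of the 34047 regions of the genome, 10658 were longer and 23384 shorter. Groups did not overlap in 3 that were longer in CDK19KD (background 4.52%) and in 1 that was shorter (19.7%). The longer ones were the same 2 regions of 1A and chr6:26152370-26167037 in 6A, which was covered over 10.5, 10.3 and 10.2 kb in CDK19KD and 6.48, 8.81 and 7.40 kb in CDK8KD. In Control it was covered over 8.70, 8.77 and 11.99 kb, which overlaps with both. Scaled to each list's total, 18 regions were longer and 4 shorter, with a median of 0.19 against 0.02 over the genome. Over the genome, 18023 were longer and 16024 shorter on that scale. Groups then did not overlap in 10 longer regions (background 10.6%), 5 in 6A, 1 in 6B, 2 in 6C and 2 in 1A, and in none (0) that was shorter (9.52%).

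**Figure D4:**
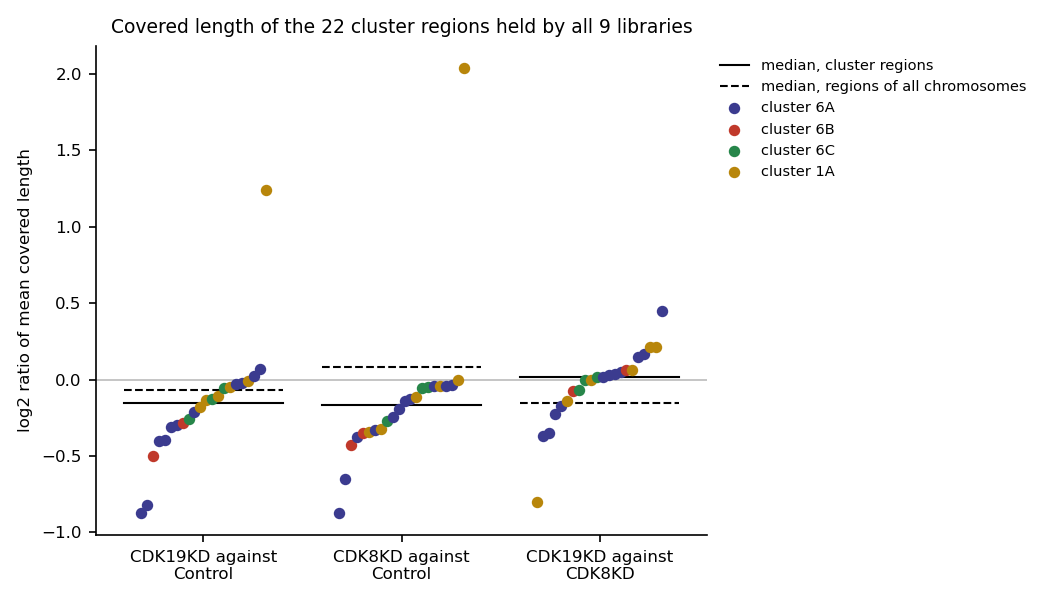
log2 ratio of mean covered length (vertical axis) for the 22 cluster regions held by all 9 libraries, 1 point per region coloured by cluster, sorted within each comparison. Solid lines are the medians of these regions and dashed lines those of the 34047 regions of all chromosomes: for CDK8KD against Control the solid line is at −0.17 and the dashed line at 0.08, and the lone high point (2.04) is the short region of weak peaks in 1A.

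Few cluster regions were present in one group and absent from another. One of the 36 regions, in 6A (chr6:26139476-26143609), was held by all 3 Control libraries (0.460, 0.697 and 1.26 kb) and by no CDK19KD library (background 0.420%), while CDK8KD replicate 3 held 4.05 kb of it. One in 1A (chr1:149758564-149760854) was held by all 3 CDK8KD libraries (1.64, 0.492 and 1.89 kb) and by no Control library (background 0.605%), while CDK19KD replicate 1 held 0.250 kb. Both consisted of weak peaks, and no peak in them had a −log10 q of at least 5. No cluster region (0) was held by CDK19KD and not Control (background 0.600%), by Control and not CDK8KD (0.390%), by CDK19KD and not CDK8KD (0.823%) or by CDK8KD and not CDK19KD (0.772%).

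The covered share of 5 kb windows was tested across the genome with limma. Of 103 windows in the clusters, 75 were touched by a peak and 67 had a mean share of at least 5% and were tested, of 132062 tested in all. Their median share was 53.8%, against 35.4% for all tested windows. In 8 of the 67 every library covered the whole window (11.9%, against 4.69% of all tested windows): 4 in 6A, 2 in 6C and 1 each in 6B and 1A.

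For CDK19KD against Control, no cluster window (0) passed an adjusted p of 0.05 in limma (Benjamini-Hochberg over all windows), where the background was 0.106% higher and 0.0560% lower. At an unadjusted p under 0.05, 3 were higher and 5 lower, where 11638 of all 132062 windows passed in either direction. Groups did not overlap in 3 windows that were higher (background 5.35%) and 9 that were lower (5.76%). The median difference over the 67 windows was −5.39 percentage points, against −2.40 over all windows, and with shares scaled to each list's total it changed sign, to 2.75 against 1.38. Among the 3 windows with the smallest p, chr6:27105001-27110000 in 6B spans the gap between its regions. It was covered to 27.5%, 38.6% and 76.1% in Control and to 0% in all 6 knockdown libraries, and its limma difference for CDK19KD was −47.4 points (SE 11.2, adjusted p = 0.265). This window reached the minimum mean share of 5% through Control alone, in the tests of either knockdown, so its test is no separate support. Another, chr6:27785001-27790000 in 6C, went from 45.5%, 41.7% and 36.9% in Control to 15.9%, 0% and 18.96% in CDK19KD (limma adjusted p = 0.270). The third, chr6:26150001-26155000 in 6A, was covered more, to 50.2%, 25.0% and 52.6% in CDK19KD against 9%, 8.90% and 0% in Control (limma adjusted p = 0.225).

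For CDK8KD against Control, 1 cluster window was called higher (background 0.485%) and none (0) lower (0.0727%) in limma. At an unadjusted p under 0.05, 2 were higher and 9 lower, where 15860 of all 132062 windows passed in either direction. The called window, chr1:149760001-149765000 in 1A, was covered to 62.7%, 53.4% and 67.2% in CDK8KD and to 20.2%, 11.7% and 5.52% in Control, with CDK19KD between them at 29.3%, 41.3% and 20.6%. The difference was 48.6 points (SE 7.29, limma adjusted p = 0.0475). No peak in this window had a −log10 q of at least 5. It did not pass with the replicate number in the model (limma adjusted p = 0.106) or with scaled shares (limma adjusted p = 0.141). It passed with 1 of the 9 libraries left out singly, Control replicate 1, and with the other 8 its limma adjusted p lay between 0.0601 and 0.151.

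Groups did not overlap in 2 cluster windows that were higher in CDK8KD (background 10.2%) and in 14 that were lower (3.66%). Of the 2 higher, chr1:149755001-149760000 in 1A was at 0% in every Control and CDK19KD library. It reached the minimum mean share of 5% through CDK8KD alone. The median difference over the 67 windows was −6.08 percentage points, against 0.08 over all windows, and with scaled shares it was −6.77 against −0.69. Just outside the threshold lay chr1:149810001-149815000, which was covered to 100%, 97.8% and 100% in Control and to 80.7%, 79.9% and 85.7% in CDK8KD (−17.1 points, SE 2.70, limma adjusted p = 0.0555). So did chr6:27100001-27105000 at the inner end of the left region of 6B, with 100% in each Control library and 82.7%, 68.5% and 67.1% in CDK8KD (−27.2 points, SE 4.40, limma adjusted p = 0.0580). CDK19KD covered this window to 87.0%, 95.6% and 96.9%.

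Between the knockdowns, no cluster window (0) was called in limma, where the background was 0.218% higher and 0.595% lower in CDK19KD. At an unadjusted p under 0.05, 4 were higher and 2 lower, where 16486 of all 132062 windows passed in either direction. Groups did not overlap in 7 windows that were higher in CDK19KD (background 4.52%) and in 3 that were lower (12.1%). The median difference was 0 points, against −3.23 over all windows, and with scaled shares it was 7.50 against 0.84. The smallest p belonged to chr6:26265001-26270000 in 6A, which was covered to 25.4%, 39.8% and 22.5% in CDK19KD, 0%, 0% and 5.98% in CDK8KD and 12.4%, 14.5% and 8.84% in Control (27.2 points, SE 5.103, limma adjusted p = 0.0715). The 3 groups did not overlap there. The windows chr6:27100001-27105000 and chr1:149810001-149815000 followed, with CDK19KD higher by 20.4 and 12.48 points (limma adjusted p = 0.103 and 0.105).

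**Figure D5:**
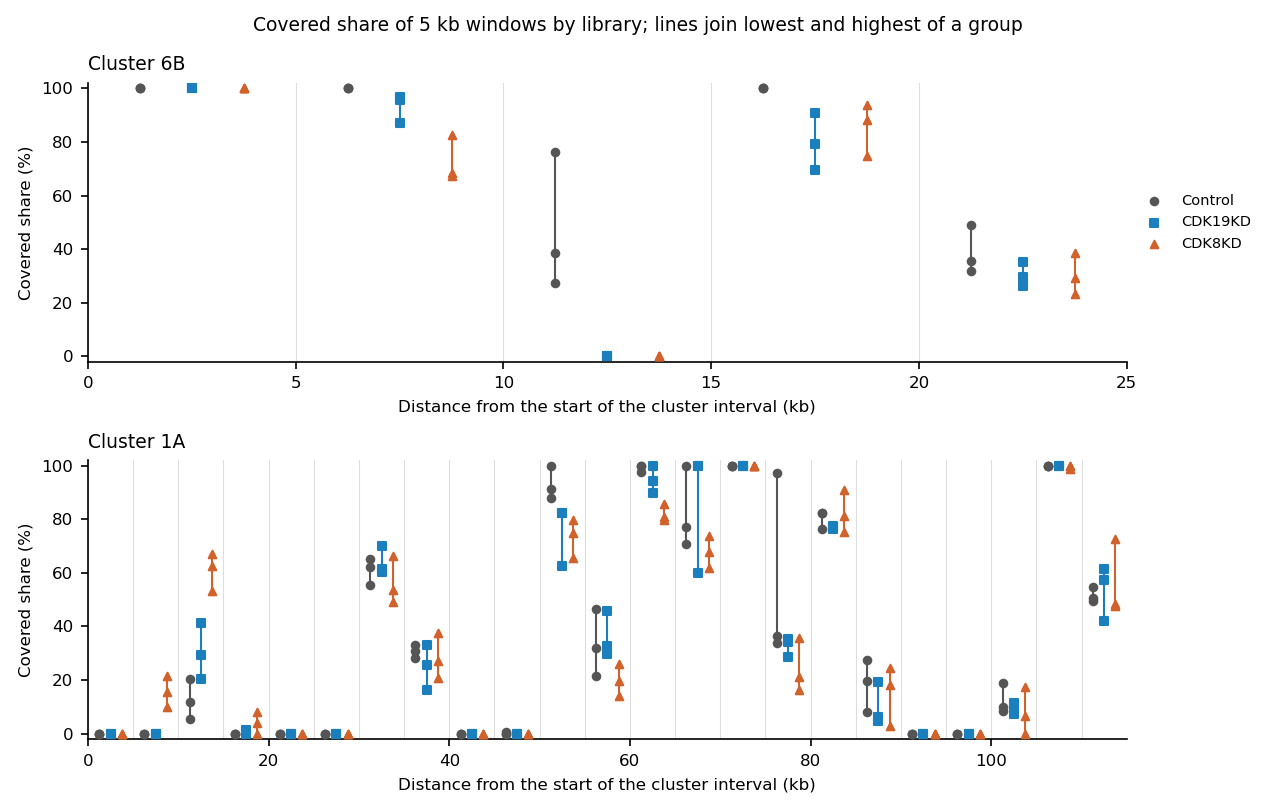
Share of each 5 kb window covered by peaks (%, vertical axis) along 6B and 1A, as distance from the start of the interval in kb; points are libraries, with a line from the lowest to the highest of each group. In the third window of 6B all 6 knockdown libraries are at 0% and Control is at 27.5% to 76.1%, and in the third window of 1A CDK8KD (53.4% to 67.2%) lies above Control (5.52% to 20.2%).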

How the data were processed

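For every library the authors deposited a separate list of broad peaks. Per the submitters' processing notes, hg19, MACS2 and deepTools were used; versions, settings, the control library and the aligner are not given in the sources used here. Each peak has a fold enrichment, a linear ratio as deposited by the authors, and the −log10 of a p-value and of a q-value as deposited. Ranks and filters used them within each list only. The 3 Input samples were not analysed here. Read depth is unknown, so the precision rests on the 3 libraries per group.

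Intervals, members and gene lists were chosen with earlier results of these data known. Covered bases, merged regions and shares of 5 kb windows were computed in Python 3.11.15 with NumPy 2.4.6 on chromosomes 1 to 22 and X, and covered lengths were checked against bedtools. Groups were compared by exact two-sided permutation tests, unadjusted (280 splits for 3 groups, smallest p 0.00357, and 10 splits for a pair, smallest p 0.1). For covered length these were run over 4 single clusters, 12 pairs within them and 8 named regions. The single-cluster tests were repeated for scaled length and for the number of peaks, and those of named regions for scaled length. The full number of unadjusted tests is therefore larger. A window entered the limma test with a mean share of 5% or more. The test used limma 3.58.1 in R 4.3.3 (eBayes with trend, 9 libraries in 1 fit, Benjamini-Hochberg over all windows). The code was first run on simulated normal values with large shifts, which gives no measure of how smaller shifts in bounded shares are recovered. Named windows are those called or, where fewer than 3 were, the 3 with the smallest p. Named regions are the 2 longest of each cluster and those exclusive to a group. Region lengths were not cut at the ends of the intervals. Genes, motifs and promoters come from RefSeq (GRCh38.p14), used for names, neighbours and sequences only. Neighbourhoods are histone genes less than 200 kb apart, matched to the intervals by their order along the chromosome.

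Replicate numbers come from the sample titles. After group means were removed, window shares of same-numbered libraries correlated at 0.118 to 0.531 in all 9 pairs. These values were above the minimum of 0.1, so the numbers were taken to pair the libraries. Pairs with different numbers correlated at −0.536 to 0.160. The highest of these, Control replicate 2 with CDK8KD replicate 1, exceeded the 0.118 of Control replicate 2 with CDK8KD replicate 2. The pairing is therefore less sure for replicate 2. Blocked tests kept the replicate number fixed: 36 arrangements for 3 groups (smallest p 0.0278), 8 sign flips for a pair (smallest p 0.25), and a replicate term in limma. Further alternatives kept peaks with −log10 q of 5 or more, or the 20000 strongest peaks by −log10 p. Others were scaling by total covered length, intervals widened by 10 kb, peaks joined within 1000 bp, windows of 10 kb, no minimum share, a region held only at 50% cover, and leaving out each library. Restricting to regions held by all 9 libraries and scaling region lengths are additions made once the data had been seen.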

Additional observations from a re-analysis of the deposited data

How the results depend on the processing

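Differences between groups made up 72.7% of the variance in covered length of the 4 clusters (exact permutation p = 0.0464). The test did not pass 0.05 for peaks with −log10 q of 5 or more (62.5%, exact permutation p = 0.0964). Nor did it pass scaled by total covered length (49.6%, exact permutation p = 0.136) or in regions held by all 9 libraries only (71.1%, exact permutation p = 0.0607). With the replicate block it did not pass either (exact permutation p = 0.0833), where groups held 82.9% of the variance left after replicate means were removed. Leaving out single libraries gave 65.8% to 84.8%. The log2 ratios to Control stayed below 0 in every setting run (−0.22 to −0.04 for CDK19KD, −0.25 to −0.16 for CDK8KD). The ratio between both knockdowns, 0.02, moved to 0.19 when scaled, turned to −0.016 with widened intervals and ranged from −0.025 to 0.066 without single libraries.

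The 1 cluster window called higher in CDK8KD than in Control fell to 0 for peaks with −log10 q of 5 or more, the 20000 strongest peaks, no minimum share, scaled shares or the replicate block, and ranged from 0 to 1 without single libraries. For windows lower in CDK8KD than in Control, 0 were called, 2 with the 20000 strongest peaks, and 0 to 1 without single libraries. For windows higher in CDK19KD than in CDK8KD, 0 were called, and 0 to 1 without single libraries. The replicate block changed no other call for the clusters together or their windows. The ratio of covered share to that of the genome, 3.87, rose to 5.92 for peaks with −log10 q of 5 or more and to 6.18 with the 20000 strongest peaks, where fewer peaks enter. The 22 regions held by all 9 libraries moved by less than 1.5 times in every setting run. Of 104 alternative log2 ratios of single clusters to Control, 1 changed sign, for 1A in CDK19KD when scaled (0.08). With the ratios of CDK19KD to CDK8KD included, 16 of 156 changed sign. The cause of these changes was not tested. With 3 libraries per group and unknown depth, no difference between a pair of groups could pass 0.05 in a permutation test.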
